A study of Mus musculus with 12 samples.

Results

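The mouse counterparts of 33 high-confidence human autism risk genes were followed in crus 1, a lobule of the cerebellar hemisphere, out of 57010 genes in the deposited table. They were taken as a fixed list of symbols for chromatin, synaptic adhesion, scaffold and signalling genes, chosen with earlier results of these data known. All 33 were present in the table and all 33 were among the 19166 genes that passed the filter on low counts, although Adnp passed it on only 3 to 22 counts per library. Bulk RNA sequencing had been done on 12 libraries in 3 groups of 4: FVB mice given saline, Fmr1 knock out mice given saline, and Fmr1 knock out mice given poly(I:C), a synthetic double-stranded RNA injected into the peritoneal cavity. The groups are called FVB, knockout-saline and knockout-poly(I:C), and libraries are numbered 1 to 4 in each. FVB is an inbred strain, named by the series as the background of the knockout. Fmr1 encodes FMRP, an RNA-binding protein that restrains translation at synapses and whose loss causes fragile X syndrome. The sources used here do not give the dose and time of poly(I:C), the age and sex of the mice or the way the knockout was made. No FVB mice given poly(I:C) were among the samples, so the effect of poly(I:C) was measured in the knockout only.

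Autism risk genes fall into a few molecular classes. One class acts in the nucleus, where chromatin remodellers and histone modifiers set which genes a developing neuron can use. Another acts at the synapse, where neurexins on the presynaptic side bind neuroligins on the postsynaptic side and SHANK proteins anchor the receptors beneath them. Others carry growth signals, such as the TSC and neurofibromin brakes on mTOR and RAS, or mark proteins for destruction, such as the E3 ligases UBE3A and CUL3. In the cerebellum, reelin made by granule cells guides Purkinje cell placement, and loss of Tsc1 or Shank2 in Purkinje cells changes social behaviour in mice. The transcripts of many of these genes are long and neuronal, and many have been reported as bound by FMRP.

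Sequencing depth ran from 35.2 to 48.7 M gene counts per library for FVB, from 38.7 to 50.2 M for knockout-saline and from 39.4 to 56.4 M for knockout-poly(I:C). Levels are given as counts-per-million (CPM) of the tested genes after TMM scaling. Fmr1 stood at 85.5 to 108 CPM in FVB, 27.9 to 36.7 in knockout-saline and 33.9 to 35.97 in knockout-poly(I:C), lower in every knockout library than in every FVB library though not at 0. Defining markers of Purkinje cells, granule cells, interneurons, astrocytes, oligodendrocytes and microglia were detected in all 12 libraries, while Emx1, a marker of forebrain neurons, stayed at 0 to 0.191 CPM. The choroid plexus gene Ttr reached 4156 CPM in knockout-saline 2, 2167 in knockout-poly(I:C) 2 and 2631 in knockout-poly(I:C) 3, against 1.63 to 65.3 in the other 9 libraries. Values without those 3 libraries are given below beside several of the results. In bulk tissue, fewer cells of a type and less RNA per cell cannot be told apart.

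Promoter windows of 300 bases, from 250 before to 50 after each annotated start, were found for 24 of the 33 genes in the RefSeq promoter table (GRCm38.p6), giving 33 windows because some genes have several starts. The windows of Ctnnb1, which encodes beta-catenin, and Shank3, which encodes a postsynaptic scaffold, are shown because these genes carry results below and because both have a start rich in G and C, as the median window of the set does. Ctnnb1 lies at chr9:120933150-120933449 on the plus strand, and has another overlapping window. Shank3 lies at chr15:89499358-89499657 on the plus strand. Both are printed 5′ to 3′ with each CG pair in capitals.
Ctnnb1: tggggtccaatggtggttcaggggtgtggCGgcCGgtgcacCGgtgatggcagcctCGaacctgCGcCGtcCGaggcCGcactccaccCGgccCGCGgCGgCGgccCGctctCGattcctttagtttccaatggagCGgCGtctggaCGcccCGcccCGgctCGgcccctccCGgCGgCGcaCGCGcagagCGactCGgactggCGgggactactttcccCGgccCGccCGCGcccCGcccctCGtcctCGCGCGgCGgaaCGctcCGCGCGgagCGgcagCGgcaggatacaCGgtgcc
Shank3: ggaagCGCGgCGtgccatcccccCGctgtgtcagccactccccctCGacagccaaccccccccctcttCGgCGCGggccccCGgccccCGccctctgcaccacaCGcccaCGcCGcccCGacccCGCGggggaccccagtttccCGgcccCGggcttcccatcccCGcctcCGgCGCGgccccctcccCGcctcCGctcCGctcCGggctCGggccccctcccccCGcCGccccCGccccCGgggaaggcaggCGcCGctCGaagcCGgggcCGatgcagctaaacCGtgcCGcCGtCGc
The Ctnnb1 window held 75.3% G and C with 46 CG pairs, and the Shank3 window held 81.0% with 40. The median over the 33 windows was 69.3% G and C, against 52.7% over all 32851 windows in the table. Because poly(I:C) is an inducer of interferon, 2 motifs named for interferon response were searched on both strands. The interferon-stimulated response element, searched as GAAA, any 2 bases and GAAA, matched 0 of the 33 windows and 3.44% of all windows. The gamma-activated site, searched as TTC, any 3 bases and GAA, matched 0 of the 33 windows and 8.3% of all windows. The absence of a match says only that these letters are not in these windows.

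Most of the 33 genes were expressed well above the typical gene of this tissue. Per kilobase of exon in the GENCODE M21 gene models, their median level over the 12 libraries was 8.19 CPM per kb, against 3.499 over 18748 tested genes with a length, and 29 of 33 lay above the 50th percentile. Ctnnb1 was the highest at 75.0 CPM per kb, followed by Nlgn2, a neuroligin of inhibitory synapses, at 46.4, by Cul3, a cullin scaffold of ubiquitin ligases, at 35.9, and by the presynaptic neurexin Nrxn2 at 28.6. These 4 were above the 90th percentile. The 3 SHANK genes were close together at 19.2 CPM per kb for Shank1, 25.0 for Shank2 and 25.9 for Shank3, and Nrxn3 stood at 21.5. The 8 chromatin genes covered a narrow band of 5.96 to 12.4 CPM per kb. Only Adnp at 0.0460, Katnal2 at 0.590 and Foxp1 at 1.66 CPM per kb fell below the 40th percentile. Katnal2 encodes a katanin-like microtubule-severing protein and Foxp1 a forkhead transcription factor. The gene models of the 33 genes were also long as a set, with a median of 12.6 kb of exon against 3.77 kb over all genes with a length.

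The Adnp value is not a usable level. Adnp, which encodes a homeodomain protein that partners chromatin remodellers, collected only 128 counts over all 12 libraries, or 0.0756 to 0.554 CPM. In GENCODE M21, 82.1% of its exon bases also belong to Gm20716, a same-strand gene model, and Gm20716 itself was listed at 0 counts in every library. The sources used here do not give the rule for reads that fall in more than 1 gene. The next largest shares were in Nlgn3, Ube3a and Ctnnb1. For Nlgn3, 41.2% of exon bases also belong to the same-strand model Gm21986, which had 369 counts against 23671 for Nlgn3. For Ube3a, 27.3% are shared with antisense models, 8.74% with Snhg14 among them, and since the strand setting of the counting is not given, reads over those shared bases cannot be told apart. For Ctnnb1, 14.6% lie in Ulk4 on the other strand, which had 447 counts against 200198.

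**Figure D1:**
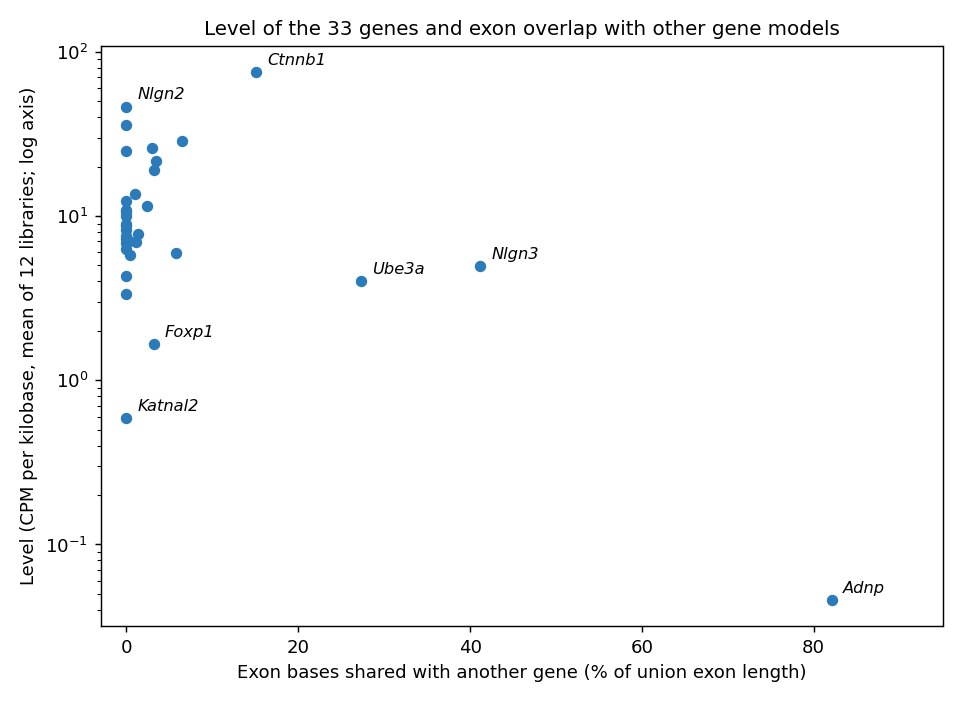
Mean level over the 12 libraries in CPM per kb (log axis) of each of the 33 genes against the share of its exon bases that also belong to another gene in GENCODE M21. Adnp, with 82.1% shared, lies lowest at 0.0460 CPM per kb, while Nlgn3 and Ube3a, with 41.2% and 27.3% shared, lie at 4.96 and 4.01.

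Between knockout-saline and FVB, none of the 33 genes passed the test. Leaving aside the thinly counted Adnp and Katnal2, the largest differences were in Shank1, Shank2, Nlgn3 and Reln. The 3 SHANK scaffolds were lower in the knockout by 0.15 to 0.28 on the log2 scale without any of them passing. The neuroligin Nlgn3 and the secreted guidance protein Reln were higher without overlap between the groups but did not pass either. Chromatin genes were nearly level, with log2 differences from -0.12 (Ash1l) to 0.07 (Ehmt1). A gene was called at a Benjamini-Hochberg adjusted p under 0.05 over all 19166 tested genes in edgeR's quasi-likelihood test, and by this rule 0 of 33 were called against a background of 1.53% of all tested genes (0.814% up and 0.720% down). At an unadjusted p under 0.05 there were 6 of 33 against 12.0% of all genes (5.93% higher and 6.07% lower), with Nlgn3, Reln and Katnal2 higher and Shank1, Shank2 and Nf1 lower. DESeq2 called 1, which was Shank1, against 3.3% of all tested genes, and limma-voom called 0 against 1.17%. The groups did not overlap for 4 of 33 genes (12.1%), namely Nlgn3, Reln, Shank1 and Nf1, against 7.02% of all tested genes (3.57% higher and 3.45% lower). The log2 difference was negative for 22 of 33 genes and positive for 11, with a median of -0.04 against 0.0033 over all tested genes.

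Shank1, which encodes a scaffold of the postsynaptic density, had the smallest p of the set in this comparison. Its level was 194, 217, 209.7 and 245 CPM in FVB libraries 1 to 4, and 189.8, 165, 193 and 163 CPM in knockout-saline libraries 1 to 4. All 4 knockout libraries were below all 4 FVB libraries, with FVB 1 and knockout-saline 3 nearly touching. The log2 difference was -0.28 (SE 0.0733; adjusted p = 0.0604), a change of -17.8%. It was called by DESeq2 (adjusted p = 0.0169), without the filter on low counts (adjusted p = 0.0108), without FVB 1 (adjusted p = 0.0399) and without knockout-saline 3 (adjusted p = 0.0488). These 2 were the only passes among the 12 fits that each left out 1 library, which ranged from -0.33 to -0.22 with adjusted p from 0.0399 to 0.213. With a replicate block the adjusted p was 0.11. Leaving out the 3 libraries with high Ttr gave -0.25 (adjusted p = 0.237). Shank2, a scaffold abundant in Purkinje cells, stood at 306, 296, 269 and 297 CPM in FVB and 282, 239, 264 and 213 CPM in knockout-saline. The lowest FVB library lay inside the knockout range, and the log2 difference was -0.23 (SE 0.0861; adjusted p = 0.263). Shank3, the scaffold gene deleted in Phelan-McDermid syndrome, stood at 209.9, 248, 248 and 258 CPM in FVB and 207, 206, 248 and 209 CPM in knockout-saline. Knockout-saline 3 sat among the FVB libraries and the other 3 knockout libraries below them, and the log2 difference was -0.15 (adjusted p = 0.43).

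**Figure D2:**
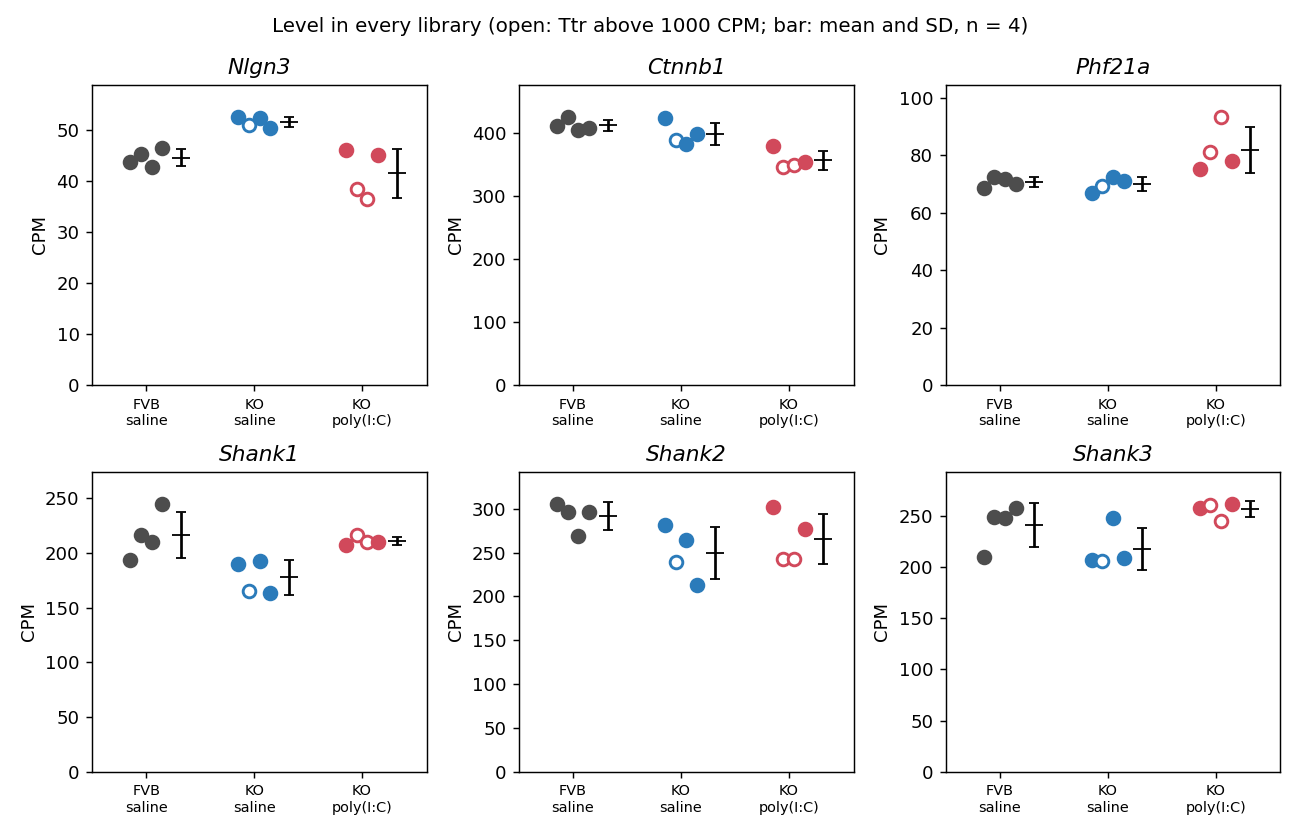
Level in TMM-scaled CPM of Nlgn3, Ctnnb1, Phf21a, Shank1, Shank2 and Shank3 in each of the 12 libraries, as points in the order of their numbers within a group, beside the mean and SD of 4 libraries; open points are the 3 libraries with Ttr above 1000 CPM. The knockout-poly(I:C) libraries lie below those of knockout-saline for Nlgn3, with its 2 open points lowest at 38.5 and 36.6 CPM, and below both other groups for Ctnnb1.

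The adhesion genes had differences of both signs. Nlgn3, a postsynaptic neuroligin whose gene is X-linked, had 43.8, 45.4, 42.8 and 46.6 CPM in FVB and 52.6, 51.1, 52.4 and 50.4 CPM in knockout-saline. The 2 groups were separate and each was tight. This gave a log2 difference of 0.21 (SE 0.0751, 95% interval 0.05 to 0.37; adjusted p = 0.21). Nrxn2 was at -0.16 (adjusted p = 0.426), Nlgn2 at -0.09, Nrxn3 at -0.01 and the contactin-associated protein gene Cntnap2 at 0.12, with overlapping groups for all 4. Reln, the guidance protein secreted by granule cells, had 283, 312, 309.6 and 280.5 CPM in FVB and 329.8, 327, 353 and 319.6 CPM in knockout-saline. Every knockout library was above every FVB library, with a log2 difference of 0.17 (SE 0.0687; adjusted p = 0.318). Among the other signalling genes, the RAS inhibitor Nf1 was at -0.12 (adjusted p = 0.4) without overlap, the kinase Dyrk1a at -0.04 and the mTOR inhibitor Tsc1 at 0.05.

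In the nucleus, Ash1l, a histone methyltransferase, had the smallest p of the chromatin genes with 174, 165, 179 and 193 CPM in FVB and 189, 166, 155 and 146 CPM in knockout-saline. The groups overlapped and the log2 difference was -0.12 (adjusted p = 0.598). Rai1, a transcriptional regulator whose dosage matters in Smith-Magenis syndrome, had 72.7, 73.3, 67.2 and 68.1 CPM in FVB and 63.2, 64.6, 72.2 and 56.8 CPM in knockout-saline. Knockout-saline 3 lay among the FVB libraries, and the log2 difference was -0.13 (adjusted p = 0.5). Chd8, a chromatin remodeller and one of the most often mutated autism genes, had group means of 98.9 ± 3.83 CPM in FVB, 97.4 ± 4.36 in knockout-saline and 99.1 ± 3.72 in knockout-poly(I:C) (SD, n = 4 each). Its 3 log2 differences lay between -0.02 and 0.03. The remaining chromatin genes Arid1b, Kmt2c, Setd5, Nsd1, Ehmt1 and Phf21a were between -0.08 and 0.07, and the nuclear regulators Pogz, Tcf4, Foxp1, Auts2, Med13l and Ctnnb1 between -0.09 and 0.11. Katnal2 was low and variable at 1.34, 2.38, 1.22 and 2.19 CPM in FVB and 2.76, 3.02, 2.41 and 1.93 CPM in knockout-saline, with a log2 difference of 0.51 (SE 0.233; adjusted p = 0.39). The groups overlapped. Ube3a, Cul3, the E3 ligase gene Trip12 and Naa15, an N-terminal acetyltransferase subunit gene, were between -0.14 and 0.04.

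Poly(I:C) in the knockout was accompanied by a lower level of 1 of the 33 genes, Nlgn3. Its level in knockout-poly(I:C) was 46.2, 38.5, 36.6 and 45.2 CPM, against 52.6, 51.1, 52.4 and 50.4 CPM in knockout-saline. All 4 treated libraries were below all 4 saline ones, and knockout-poly(I:C) 2 and 3 were the lowest. Nlgn3 fell by 19.4%, a log2 difference of -0.31 (SE 0.0750, 95% interval -0.47 to -0.15; adjusted p = 0.0282), from a mean of 51.7 ± 1.05 to 41.6 ± 4.79 CPM (SD, n = 4 each). The 2 lowest libraries are those with high Ttr in the treated group. Without the 3 high-Ttr libraries the log2 difference was -0.18 (adjusted p = 0.654), with 3 knockout-saline and 2 knockout-poly(I:C) libraries left, and with log2 Ttr as a covariate it was -0.30 (adjusted p = 0.0234). The call was also lost when any of knockout-saline 1, 2 or 3 was left out (adjusted p = 0.076, 0.062 and 0.0762), and when knockout-poly(I:C) 2 or 3 was left out (adjusted p = 0.105 and 0.118). Against FVB, with a mean of 44.6 CPM, Nlgn3 in knockout-poly(I:C) was at -0.10 (adjusted p = 0.48), with overlapping groups.

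In this comparison 1 of 33 genes was called (3.03%) against a background of 2.87% (1.81% up and 1.06% down). At an unadjusted p under 0.05 there were 9 of 33 against 15.5% (7.89% higher and 7.62% lower), with Phf21a, Med13l, Adnp (on its few counts), Shank1 and Shank3 higher and Ctnnb1, Nlgn3, Nrxn3 and Cntnap2 lower. The groups did not overlap for 5 of 33 (15.2%), Phf21a, Med13l, Shank1, Ctnnb1 and Nlgn3, against 9.75% of all tested genes (4.93% higher and 4.82% lower). The log2 difference was positive for 22 of 33 genes and negative for 11, with a median of 0.03 against -0.0017 over all tested genes. DESeq2 called 4, which were Nlgn3, Phf21a, Shank1 and Shank3, against 5.14% of all tested genes, and limma-voom called Nlgn3 alone, against 2.98%. This comparison and the one between genotypes share the 4 knockout-saline libraries. A gene that happened to be low in those libraries would be lower than FVB and also lower than knockout-poly(I:C). Likewise, a gene that happened to be high in them would be higher than both, and Nlgn3 was above both other groups there. Whether this played a part was not tested.

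**Figure D3:**
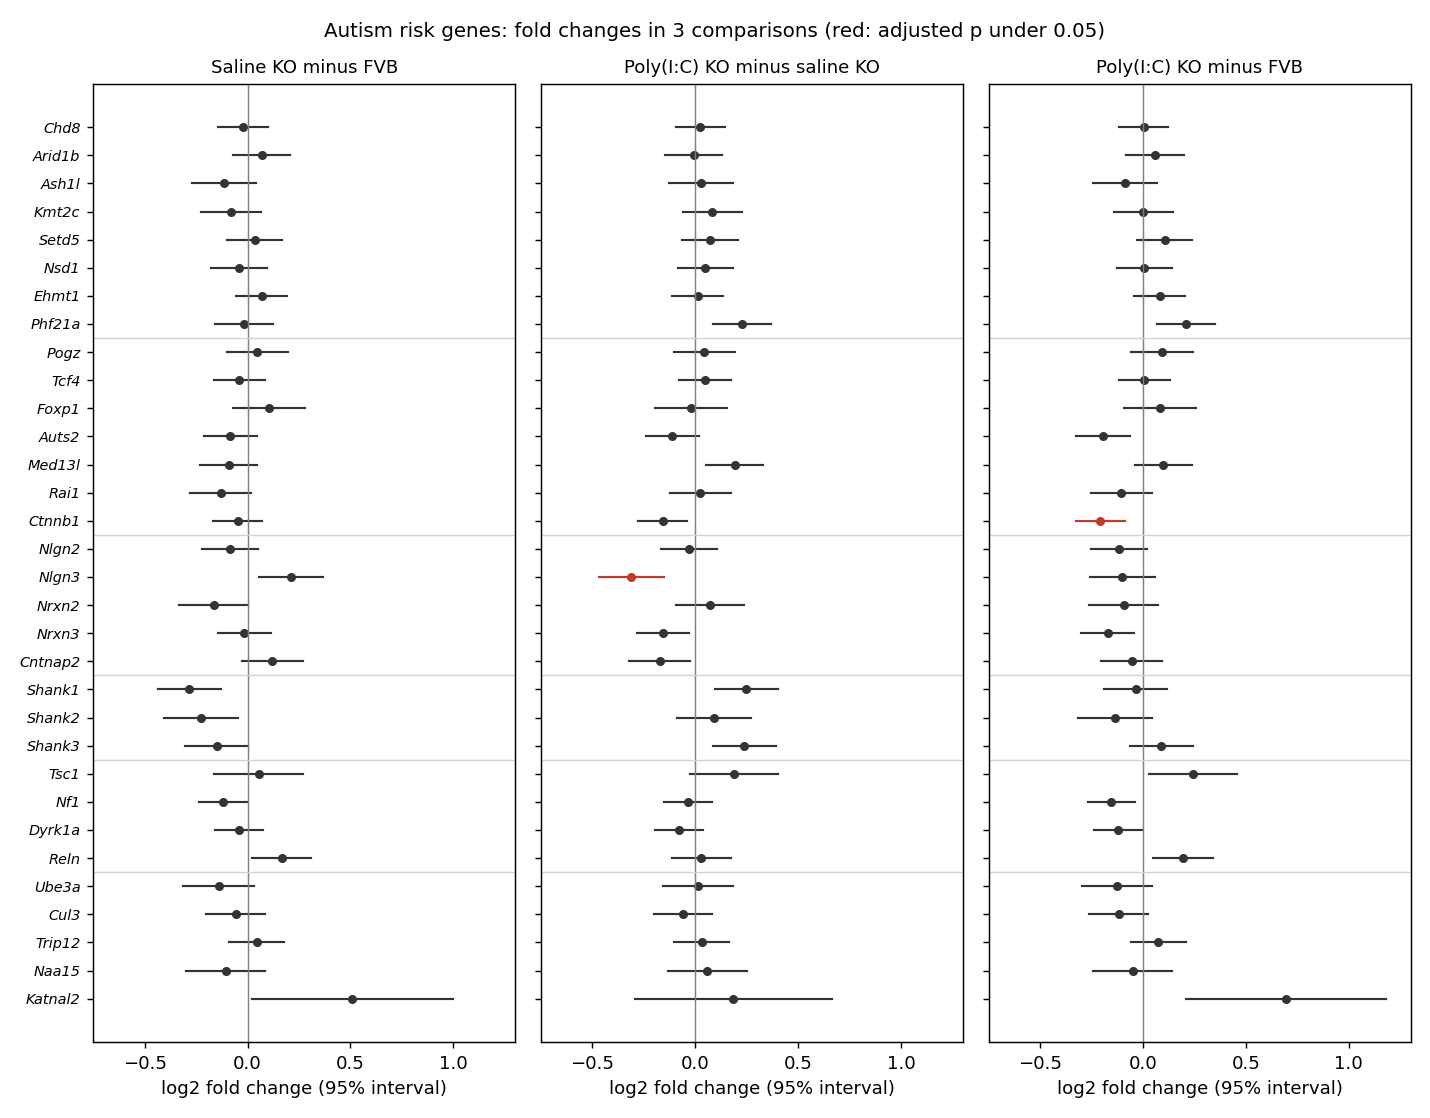
Log2 differences (points) with 95% intervals (lines) for 32 genes in the 3 comparisons, grouped by role from chromatin genes at the top to ubiquitin, acetylation and cytoskeleton genes at the bottom; Adnp is left out for its low counts. Red marks an adjusted p under 0.05, which only Nlgn3 after poly(I:C) and Ctnnb1 in knockout-poly(I:C) against FVB reached, and Katnal2 has the widest intervals.

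The scaffold genes had positive differences after poly(I:C). Shank1 stood at 207, 217, 210.4 and 209.9 CPM in knockout-poly(I:C), above all 4 knockout-saline libraries and within the FVB range. Its log2 difference was 0.25 (SE 0.0732; adjusted p = 0.0796), and DESeq2 gave an adjusted p = 0.0391. Without the 3 high-Ttr libraries it was 0.20 (adjusted p = 0.714). Shank3, which is given in full although chosen after its values were seen, stood at 258, 261, 245 and 262 CPM in knockout-poly(I:C). Only knockout-saline 3 reached into that range. The log2 difference was 0.24 (SE 0.0729; adjusted p = 0.0924), and without knockout-saline 3 it was 0.31 (adjusted p = 0.0218). No other omission of a library passed, and the 12 such fits ranged from 0.21 to 0.31 with adjusted p up to 0.225. Without the 3 high-Ttr libraries it was 0.23 (adjusted p = 0.569). Shank2 had 301, 242, 242 and 277 CPM in knockout-poly(I:C), overlapping with knockout-saline, at a log2 difference of 0.09 (adjusted p = 0.678), and at 0.19 (adjusted p = 0.763) without the 3 high-Ttr libraries.

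Of the chromatin genes, Phf21a, a reader of unmethylated histone H3 in the LSD1 complex, differed most. It had 66.7, 69.5, 72.6 and 71.0 CPM in knockout-saline and 75.3, 81.0, 93.3 and 78.0 CPM in knockout-poly(I:C). The groups were separate, and knockout-poly(I:C) 3 was the highest of all 12 libraries. The log2 difference was 0.23 (SE 0.0668; adjusted p = 0.0772), with an adjusted p = 0.0322 in DESeq2 and 0.0436 without knockout-poly(I:C) 1. No other omission of 1 library passed, and the 12 such fits ranged from 0.16 to 0.27 with adjusted p up to 0.278. The 2 highest libraries are again those with high Ttr, and without the 3 high-Ttr libraries the log2 difference was 0.13 (adjusted p = 0.846). The other 7 chromatin genes lay between -0.01 and 0.08. Med13l, a subunit of the kinase module of Mediator, had 86.4, 81.7, 82.7 and 82.3 CPM in knockout-saline and 89.7, 89.1, 108 and 93.9 CPM in knockout-poly(I:C). These groups too were separate, with knockout-poly(I:C) 3 again the highest, and the log2 difference was 0.19 (adjusted p = 0.147), or 0.13 (adjusted p = 0.846) without the 3 high-Ttr libraries.

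Adhesion genes other than Nrxn2 had negative differences after poly(I:C). Besides Nlgn3, Cntnap2 was at -0.17 (adjusted p = 0.231), Nrxn3 at -0.16 (adjusted p = 0.203) and Nlgn2 at -0.03, while Nrxn2 was at 0.07. Of the signalling genes, Tsc1 had the smallest p, with 88.0, 84.6, 92.9 and 65.2 CPM in knockout-saline and 84.0, 88.5, 111 and 93.5 CPM in knockout-poly(I:C). The groups overlapped and the log2 difference was 0.19 (SE 0.102; adjusted p = 0.404). It ranged from 0.09 to 0.25 with 1 library left out, the lowest being without knockout-saline 4, and was 0.12 (adjusted p = 0.957) without the 3 high-Ttr libraries. Reln, at 297, 338, 371 and 350.0 CPM in knockout-poly(I:C), overlapped with knockout-saline at a log2 difference of 0.03 (adjusted p = 0.896). Cul3 had 182, 178, 159 and 181 CPM in knockout-saline and 175, 167, 155 and 174 CPM in knockout-poly(I:C), a log2 difference of -0.06 (adjusted p = 0.738).

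Knockout-poly(I:C) against FVB combines both differences, and here 1 of the 33 genes was called, Ctnnb1. Ctnnb1 encodes beta-catenin, the effector of canonical Wnt signalling and a partner of cadherins at cell junctions. It stood at 411, 426, 406 and 408 CPM in FVB, 424, 389, 384 and 399 CPM in knockout-saline, and 379.5, 346, 349 and 354 CPM in knockout-poly(I:C). All 4 treated libraries were below the other 8. Against FVB it fell by 13.4%, a log2 difference of -0.21 (SE 0.0562, 95% interval -0.33 to -0.09; adjusted p = 0.0307), from a mean of 412 ± 9.10 to 357 ± 15.1 CPM (SD, n = 4 each). Against knockout-saline the log2 difference was -0.16 (adjusted p = 0.155), and between knockout-saline and FVB it was -0.05 (adjusted p = 0.814).

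The Ctnnb1 call was close to its threshold. Without the 3 high-Ttr libraries the log2 difference was -0.17 (adjusted p = 0.367), and with log2 Ttr as a covariate -0.19 (adjusted p = 0.0749). Without the filter on low counts the adjusted p was 0.0881. It was lost when any 1 of the 4 FVB libraries was left out (adjusted p = 0.0596, 0.0846, 0.0556 and 0.0608 for FVB 1 to 4), and when knockout-poly(I:C) 2, 3 or 4 was left out (adjusted p = 0.101, 0.0997 and 0.0798). It was called by DESeq2 (adjusted p = 0.00218) and by limma-voom (adjusted p = 0.0221).

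The 1 called gene of 33 compares with 7.05% of all tested genes in this comparison (3.81% up and 3.24% down). At an unadjusted p under 0.05 there were 9 of 33 against 21.3% (10.6% higher and 10.7% lower), with Phf21a, Tsc1, Reln and Katnal2 higher and Auts2, Ctnnb1, Nrxn3, Nf1 and Dyrk1a lower. DESeq2 called 4, which were Ctnnb1, Phf21a, Auts2 and Katnal2, against 10.1% of all tested genes, and limma-voom called Ctnnb1 alone, against 6.42%. The groups did not overlap for 5 of 33, with Phf21a higher and Auts2, Ctnnb1, Nrxn3 and Nf1 lower, against 14.2% of all tested genes (6.74% higher and 7.46% lower). Log2 differences were positive for 17 and negative for 16 of the 33, with a median of 0.0016 against 0.0010 over all tested genes.

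Among those that were not called, Phf21a was at 0.21 (adjusted p = 0.066) with FVB libraries at 68.7, 72.6, 71.6 and 70.2 CPM. Auts2, a component of a variant Polycomb complex, was at -0.20 (adjusted p = 0.0651), with 78.6 to 85.1 CPM in FVB and 68.5 to 75.5 CPM in knockout-poly(I:C). Katnal2 had 2.73, 3.26, 3.15 and 2.37 CPM in knockout-poly(I:C), overlapping slightly with FVB 2, at 0.69 (SE 0.231; adjusted p = 0.0803). Nrxn3 had 275, 272, 274 and 311 CPM in FVB, 285, 261, 288 and 286 CPM in knockout-saline and 248, 265, 249 and 243 CPM in knockout-poly(I:C). All treated libraries were below all FVB libraries for Nrxn3, at -0.17 (adjusted p = 0.1). The 5 adhesion genes all had negative log2 differences here, from -0.17 to -0.05, and none passed. Tsc1 was at 0.24 (adjusted p = 0.175) with 77.1, 74.7, 85.8 and 80.7 CPM in FVB, where the groups overlapped. Reln was at 0.19 (adjusted p = 0.0996), and was called without knockout-poly(I:C) 1 (adjusted p = 0.0254) but in none of the other fits that left out 1 library, the 12 ranging from 0.15 to 0.25 with adjusted p up to 0.301. Without the 3 high-Ttr libraries Phf21a, Tsc1, Reln and Nrxn3 were at 0.12, 0.16, 0.13 and -0.20, and none passed. For Shank2 the difference was -0.14 (adjusted p = 0.388), and Shank1 and Shank3 were at -0.04 and 0.09.

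Intervals were narrow for most of the set. Over the 31 genes left when Adnp and Katnal2 are set aside, a choice made after their low counts were seen, the 95% interval of the log2 difference lay within 0.5 of 0 for all 31 in each of the 3 comparisons. The median distance from estimate to bound was 0.14. The median absolute log2 difference was 0.08 between knockout-saline and FVB, 0.06 between knockout-poly(I:C) and knockout-saline, and 0.10 between knockout-poly(I:C) and FVB. The lowest bound in any comparison was -0.47, for Nlgn3 after poly(I:C), and the highest was 0.46, for Tsc1 in knockout-poly(I:C) against FVB.

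Replicates of these 31 genes were close to one another. Their median coefficient of variation was 5.48% in FVB, 6.01% in knockout-saline and 5.00% in knockout-poly(I:C), against 7.00%, 7.12% and 6.07% for the 7416 genes in the same range of mean CPM. That range ran from 22.8 to 394 CPM, and levels within it were not matched, so the 2 sets may differ in typical level. The most variable of the 31 were Naa15 in FVB at 11.0% and Tsc1 in knockout-saline and knockout-poly(I:C) at 14.6% and 12.5%. The least variable were Nf1 in FVB at 1.70%, Dyrk1a in knockout-saline at 1.92% and Shank1 in knockout-poly(I:C) at 1.88%.

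A few libraries supplied many of the extremes. Over 32 genes without Adnp, knockout-saline 4 was the lowest of the 12 libraries for 10, among them Shank1, Shank2, Ash1l and Tsc1, and FVB 4 was the highest for 8. The median log2 deviation of the 32 genes from their own mean was -0.09 in knockout-saline 4 and 0.06 in FVB 4, while over all tested genes the library medians lay between 0.0020 and 0.0102. Knockout-saline 4 was not one of the libraries with high Ttr.

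**Figure D4:**
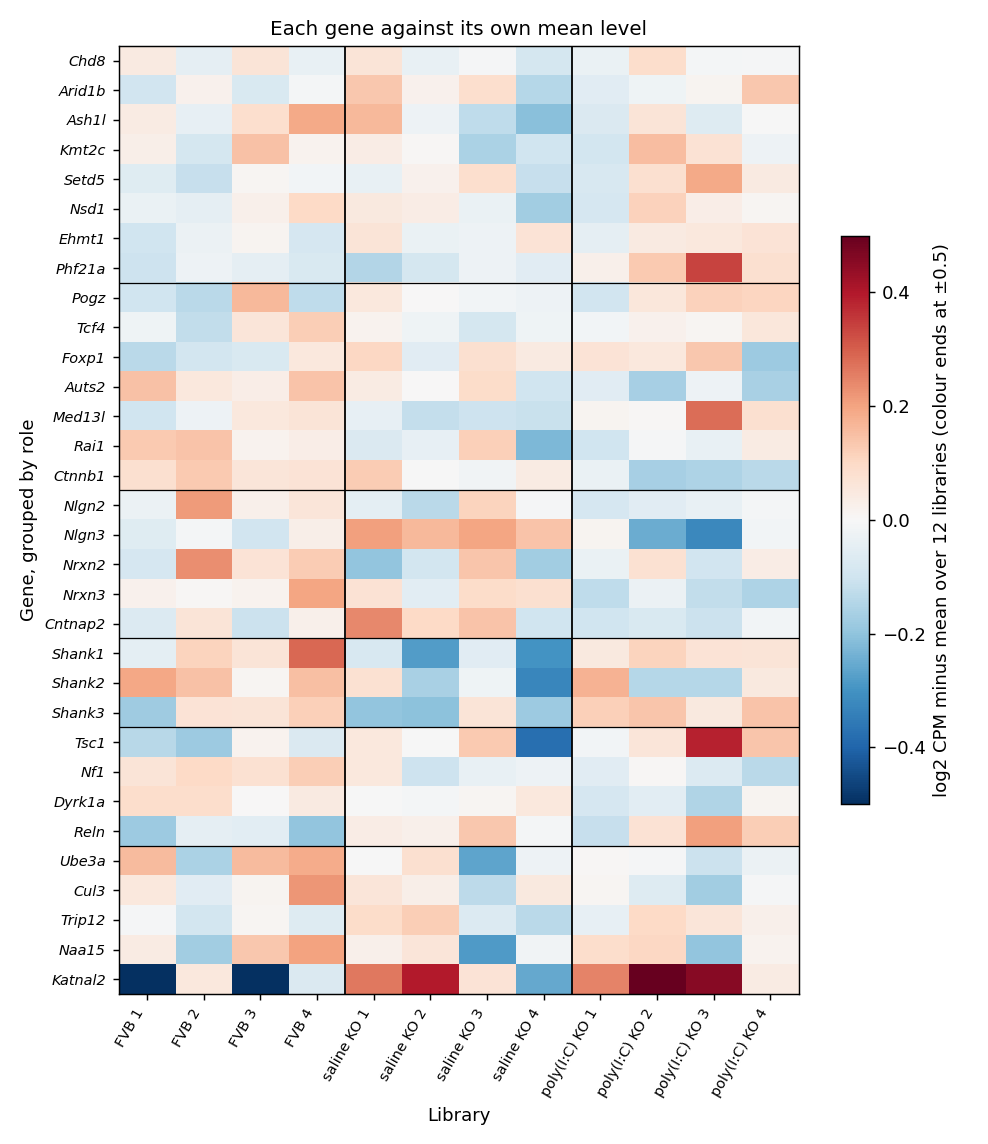
Log2 CPM of 32 genes (rows, grouped by role, without Adnp) in each of the 12 libraries (columns), minus the mean of that gene over the 12 libraries; red is above and blue below the mean, and colours end at 0.5 in either direction. Knockout-saline 4 holds the lowest value of 10 of the 32 genes, and Katnal2 has the widest spread.

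Marker levels of some cell types also differed between the groups, and none of the markers in these lists was at 0 in all 12 libraries. The summed level of 5 microglia markers was 68.6 to 80.2 CPM in FVB, 65.4 to 80.8 in knockout-saline and 49.2 to 64.4 in knockout-poly(I:C). The summed level of 5 interneuron markers was 1640 to 1966 CPM in FVB, 1496 to 1752 in knockout-saline and 1443 to 1635 in knockout-poly(I:C). Most of this sum came from Pvalb and Gad1, with means over the 12 libraries of 777 and 679 CPM. Slc32a1, Slc6a5 and Sorcs3 had means of 127, 39.9 and 29.1 CPM. For 4 neutrophil markers the sum was 0.662 to 1.56, 3.39 to 29.9 and 1.79 to 7.91 CPM in the same order of groups. The 7 choroid plexus markers summed to 32.5 to 93.4, 34.1 to 4380 and 21.7 to 2804 CPM. Their part in the differences of Nlgn3, Ctnnb1 and the SHANK genes was not tested beyond the fits without the high-Ttr libraries and with Ttr as a covariate.

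Genes that work with the 33 were followed in 11 further lists with 250 tested genes, covering other autism genes, SHANK and neurexin partners, BAF and CHD remodellers, histone methyltransferases, the TSC, RAS, Wnt and reelin pathways and ubiquitin ligase partners. Between knockout-saline and FVB 0 were called by edgeR, against 1.53% of all tested genes. At an unadjusted p under 0.05 there were 30, of which 12 were higher and 18 lower, against 12.0% of all tested genes (5.93% higher and 6.07% lower). DESeq2 called 6, against 3.3% of all, and limma-voom 0. After poly(I:C) 2 fell and 0 rose, against 1.06% and 1.81% of all tested genes. Among those that fell was Ss18l1, a BAF subunit of neurons, from 48.3 ± 3.33 to 40.4 ± 1.87 CPM at a log2 difference of -0.25 (adjusted p = 0.0485).

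In knockout-poly(I:C) against FVB, 16 of the 250 were called, of which 15 fell and 1 rose, against 7.05% of all tested genes (3.81% higher and 3.24% lower). The log2 difference was negative for 164 of the 250, with a median of -0.05. Of the TSC and mTOR pathway, Akt1, a kinase upstream of mTOR, fell at -0.22 (adjusted p = 0.0402). Of the neurexin and neuroligin partners, Grid1 (-0.36) and Cntn4 (-0.25) were among those that fell. Of the other autism genes, Lrrc4c, a synaptic adhesion gene, fell from 36.03 ± 3.70 to 26.7 ± 1.84 CPM at -0.43 (adjusted p = 0.00238), and the NMDA receptor subunit genes Grin2b (-0.50) and Grin2a (-0.29) and the sorting gene Pacs1 (-0.31) fell as well. In the reelin pathway the intracellular adaptor Dab1 (-0.26, adjusted p = 0.0101) and Rapgef1 (-0.26) fell. On this list, 12 of 12 genes had negative differences with a median of -0.14, against 0.0010 over all tested genes. Reln itself is not on the list and had a positive difference of 0.19 (adjusted p = 0.0996), which did not pass. Wnt7a, a Wnt ligand of granule cells, fell at -0.39 (adjusted p = 0.0159). A fall here is against FVB, and the genes differed in how far knockout-saline was already lower. Mean CPM in FVB, knockout-saline and knockout-poly(I:C) was 66.2, 51.2 and 50.6 for Wnt7a and 56.9, 47.2 and 47.9 for Cntn4. It was 17.0, 12.7 and 12.0 for Grin2b, but 47.9, 48.3 and 40.4 for Ss18l1. Others that fell were Chd5, Phf10, Ss18l1 and Klhl13, at -0.43, -0.23, -0.24 and -0.32. Without the 3 high-Ttr libraries 1 of these lists' genes was called in knockout-poly(I:C) against FVB and 0 after poly(I:C). Calls over all tested genes then numbered 556 and 215, against 1352 and 550 with all 12 libraries.

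Over the 86 tested genes of the list of other high-confidence autism genes, the median log2 difference was -0.04 between knockout-saline and FVB, 0.0038 after poly(I:C) and -0.03 in knockout-poly(I:C) against FVB. The difference was negative for 59, 42 and 51 of the 86 in turn, and the 4 calls on this list were those of Lrrc4c, Grin2b, Pacs1 and Grin2a in the last comparison.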

How the data were processed

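Read counts per gene were deposited by the authors as 1 table of whole-number counts for 57010 Ensembl genes in 12 libraries. Trim Galore, HISAT2, featureCounts and GRCm39 are named, per the submitters' processing notes; the sources used here do not give versions, strand setting, annotation release or the rule for reads in several genes. Per the labels' protocols, RNA was taken with TRIzol, treated with DNase I and made into TruSeq libraries. Groups follow the genotype and treatment labels; the titles call the knockout libraries given saline sham. Whether libraries of a group are different animals is not stated, so the p-values reflect only the spread between libraries, which may be technical.

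From the counts, genes were kept by filterByExpr (minimum count 10, minimum total 15) and fitted with edgeR 4.0.16 in R 4.3.3 (TMM, robust quasi-likelihood, 3 group means, 9 residual degrees of freedom, common biological coefficient of variation 0.152), with Benjamini-Hochberg adjustment over 19166 genes. Standard errors (SE) were taken as the size of the log2 fold change divided by the root of F. Symbols (52029 genes, 99.4% of counts), exon lengths and overlaps are from GENCODE M21 on GRCm38; no coordinates were joined to the counts. The 33 genes and the further lists were chosen with earlier results of these data known. Full values are given for each of the 33 called in any comparison and for the smallest p in each role group and comparison, and Shank3 was added after its values were seen. Genes of the further lists are named when called, up to 4 per list and comparison. Some genes that this rule names are not reported here. Alternatives were RLE and upper quartile scaling, no filter, at least 10 counts in 8 libraries, a replicate block, no robust estimation, an adjusted p under 0.1, only the 2 groups compared, DESeq2 1.42.0, limma-voom (limma 3.58.1) and dropping every library in turn; a fit on the 9 libraries with Ttr of at most 1000 CPM, and one with log2 Ttr as a covariate, were chosen after seeing the data. The fits were tested on simulated data. No 2 libraries of a group agreed within sampling noise, the lowest chi-square per gene between 2 of them being 12.4.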

Additional observations from a re-analysis of the deposited data

Results flagged for a closer look

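Of 99 sets of 4 libraries (33 genes in 3 groups), 5 held 1 library far from the other 3 by Dixon's test at the 95% level, about what chance gives at 1 in 20. Pogz, a zinc finger gene of heterochromatin, stood at 91.9 CPM in FVB 3, with the other 3 FVB libraries at 75.0 to 76.8. Nrxn3 stood at 311 CPM in FVB 4, against 272 to 275 in the other FVB libraries. In knockout-saline, Nrxn3 was at 261 CPM in library 2, which is one of the libraries with high Ttr, against 285 to 288 in the others. Shank3 was at 248 CPM in knockout-saline 3, against 206 to 209 in the others, and without this library Shank3 passed after poly(I:C) (adjusted p = 0.0218). Ube3a, which shares 27.3% of its exon bases with antisense models, was at 73.9 CPM in FVB 2, against 92.0 to 93.8 in the others.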

How the results depend on the processing

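Of the 33 genes, 0 were called between knockout-saline and FVB, 1 after poly(I:C) and 1 in knockout-poly(I:C) against FVB. Without the filter on low counts these became 1, 3 and 0; at an adjusted p under 0.1 they became 1, 4 and 5; DESeq2 gave 1, 4 and 4. Fitting only the 2 groups compared gave 0 after poly(I:C), where Nlgn3 had an adjusted p = 0.0505. Without the libraries with Ttr above 1000 CPM the counts were 0 after poly(I:C) and 0 in knockout-poly(I:C) against FVB, and with log2 Ttr as a covariate the latter was 0. RLE and upper quartile scaling, the stricter filter, no robust estimation and limma-voom left the 3 counts at 0, 1 and 1. Leaving out each library in turn gave 0 to 1, 0 to 2 and 0 to 3. Of the 250 further genes, 0, 2 and 16 were called. Without the filter the first 2 became 6 and 1, at an adjusted p under 0.1 the 3 became 4, 5 and 30, DESeq2 gave 6 and 6 for the first 2, and the fit of 2 groups gave 1 and 1. RLE scaling, at least 10 counts in 8 libraries, limma-voom and the Ttr covariate each gave 1 after poly(I:C). Without the high-Ttr libraries 0 and 1 were called in the last 2 comparisons, and with the covariate 5 in the last. Leaving out each library gave 0 to 2, 0 to 7 and 3 to 19. The cause of these shifts was not tested.

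The replicate number as a block gave 0, 1 and 1 of the 33 genes and 1, 1 and 15 of the further genes; Nlgn3 kept an adjusted p = 0.0301 after poly(I:C) and Ctnnb1 one of 0.0431 in knockout-poly(I:C) against FVB. Same-numbered libraries correlated at -0.099 to 0.145, with 2 of 12 pairs over 0.1, so the number was not read as a pairing.

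The median level of the 33 genes in FVB was 98.9 CPM, and 102.7 with at least 10 counts in 8 libraries, where Adnp drops out; leaving out each library gave 97.4 to 100.2 CPM in FVB, 95.6 to 98.8 in knockout-saline and 96.3 to 98.1 in knockout-poly(I:C). Among the genes with full values, 4 differences that had not passed turned sign without the high-Ttr libraries: Nlgn3 (0.037) in knockout-poly(I:C) against FVB, Nrxn3 (0.019) in knockout-saline against FVB, and Reln (-0.045) and Cul3 (0.0077) after poly(I:C). Among the same genes, leaving out each library gave differences that spanned 0 for Ash1l (-0.022 to 0.10), Rai1 (-0.028 to 0.087) and Reln (-0.0135 to 0.088) after poly(I:C), Phf21a (-0.035 to 0.0047), Nrxn3 (-0.034 to 0.0325) and Tsc1 (-0.0069 to 0.15) in knockout-saline against FVB, and Shank1 (-0.085 to 0.0295) in knockout-poly(I:C) against FVB. With 4 libraries a group, differences under about 0.14 on the log2 scale lay within the median 95% interval of these genes.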
